A study of Mus musculus with 24 samples.

Results

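The Ikaros family of zinc finger transcription factors was examined in 24 bone marrow RNA-seq libraries of mice lacking PLCγ1, PLCγ2 or both. Its 5 members were taken by gene symbol from the 24421 genes of the count tables, and all 5 were present: Ikzf1 (Ikaros), Ikzf2 (Helios), Ikzf3 (Aiolos), Ikzf4 (Eos) and Ikzf5 (Pegasus). The study compared 2 populations, CLPs (common lymphoid progenitors, sorted as Lin-IL-7R+) and B cell progenitors (sorted as B220+IgM-IL-7R+). Each came from 4 genotypes, Plcg1+/+Plcg2+/+ (control), Plcg1-/-Plcg2+/+ (PLCγ1-deficient), Plcg1+/+Plcg2-/- (PLCγ2-deficient) and Plcg1-/-Plcg2-/- (double-deficient), with 3 mice each and 1 library per mouse and population. All libraries were made from CD45.2+ donor cells taken out of lethally irradiated wild-type CD45.1+ recipients of a bone marrow transplant. Plcg2 was deleted in the germline, whereas floxed Plcg1 was deleted by a Cre under the interferon-inducible Mx-1 promoter induced by PolyI:C in donors of every genotype. All donors were described as carrying this Cre and a Rosa-YFP reporter of its action, but YFP was not among the stated markers of the sort, so that cells with an undeleted allele could be included. The donors were adult mice of a mixed 129xC57BL/6 background and of both sexes. How many donors served each genotype is not stated, and p-values measure the spread between recipients.

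Ikaros family proteins bind DNA through a cluster of zinc fingers near the N terminus and pair with one another through another cluster at the C terminus. Ikaros is needed for the development of B cells and also acts in other lymphoid lineages. Aiolos comes up as B cell progenitors pass to the pre-B stage, where both proteins help to end the proliferation driven by IL-7 and the pre-BCR and to bring on light chain rearrangement. Helios and Eos are best known from regulatory T cells, Helios also from innate lymphoid cells, and Pegasus is broadly expressed and reads a different DNA site. PLCγ enzymes act downstream of antigen receptors, the pre-BCR among them, and the study asked what their loss does to progenitors that depend on IL-7.

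The second zinc finger is shown because in Ikaros and Aiolos it carries the residues that cereblon-bound imide drugs recognise. It was taken as the second match of a zinc finger pattern in each protein, by order and without alignment. The coding sequences below were read 5′ to 3′ from the GENCODE M21 transcripts of GRCm38 with the longest coding sequence of each gene. Capitals mark the codons of the 2 cysteines and 2 histidines that hold the zinc ion.
Ikzf1: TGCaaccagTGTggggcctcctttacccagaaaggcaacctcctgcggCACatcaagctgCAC
Ikzf2: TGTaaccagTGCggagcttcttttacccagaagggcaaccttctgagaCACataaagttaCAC
Ikzf3: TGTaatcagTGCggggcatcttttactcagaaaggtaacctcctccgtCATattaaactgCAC
Ikzf4: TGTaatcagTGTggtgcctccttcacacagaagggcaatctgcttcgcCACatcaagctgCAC
Ikzf5: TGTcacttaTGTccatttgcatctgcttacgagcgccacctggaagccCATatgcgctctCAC
They lie at chr11:11754024-11754086 on the plus strand (exon 6 of Ikzf1-203), chr1:69570581-69570643 on the minus strand (exon 5 of Ikzf2-207), chr11:98488940-98489002 on the minus strand (exon 5 of Ikzf3-201), chr10:128640229-128640291 on the minus strand (exon 5 of Ikzf4-203) and chr7:131392501-131392563 on the minus strand (exon 4 of Ikzf5-201). Over these 63 bases, Ikzf1 shared 51 with Ikzf2, 51 with Ikzf3 and 53 with Ikzf4, and the Ikzf3 finger shared 48 with Ikzf2. Ikzf5 shared 26 with Ikzf1 and 26 with Ikzf3. The pattern had 6 matches in Ikzf1 and 5 in Ikzf5, so the second finger of Ikzf5 may not be the counterpart of the others. Its 26 bases therefore do not measure the divergence of a corresponding finger. Whole coding sequences held 1605 bases in Ikzf1, 1596 in Ikzf2, 1521 in Ikzf3, 2058 in Ikzf4 and 1257 in Ikzf5, and 64.1 to 69.8% of their aligned bases were the same between any pair. No word of 50 bases occurred in the transcripts of more than one member, so a read that held such a word could come from 1 member alone. The genes span chr11:11685003-11772926 (Ikzf1), chr1:69531214-69687245 (Ikzf2), chr11:98464902-98546031 (Ikzf3), chr10:128630843-128645991 (Ikzf4) and chr7:131388652-131410521 (Ikzf5). Annotated genes of the opposite strand that are not listed in the count files overlap 144 exon bases of Ikzf2, 37 of Ikzf4 and 183 of Ikzf5, and the library kit does not mark the strand of reads on those bases.

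Depth and purity bear on every value below. Reads on genes ranged from 4232345 to 33219995 in CLP libraries and from 1479582 to 25057223 in B cell progenitor libraries, and between 17.9 and 45.2% of the counted reads of CLPs, against 59.9 to 87.3% of those of B cell progenitors, fell on no gene. The libraries labelled as CLPs carried B lineage transcripts at levels close to those of B cell progenitors: in control libraries the mean of Ebf1, a transcription factor that specifies the B lineage, was 468 ± 342 CPM (counts per 1000000 reads on genes, after TMM scaling; SD, n = 3) in CLPs and 649 ± 112 CPM in B cell progenitors, with overlapping libraries. Both populations also held transcripts of the granule enzyme Mpo, at 1236.6 CPM or more in CLPs and 638 CPM or more in B cell progenitors. In 8 of the 12 mice no more than 506 of 9543 genes with a mean above 10 CPM differed by over 2-fold between the CLP and the B cell progenitor library, and in the other 4 (control replicate 1 and replicate 2 of each deficient genotype) 663 to 1737 genes did. Plcg2 transcripts were lower in every library labelled Plcg2-/- than in every other library, from 98.6 to 138 CPM against 196 to 282 CPM in CLPs and from 72.1 to 111 CPM against 183 to 247 CPM in B cell progenitors. Plcg1 transcripts did not separate by genotype, from 70.9 to 185 CPM in CLPs labelled Plcg1-/- against 90.3 to 113 CPM in the others, and reads outside the deleted exons check nothing. Xist was at 1294 CPM or more in all libraries labelled Plcg1-/- and at 743 CPM or less in all others. A difference of PLCγ1-deficient or double-deficient cells from control or PLCγ2-deficient cells and one between sexes therefore cannot be told apart. Double-deficient and PLCγ1-deficient libraries overlapped in Xist, but the Y-linked Ddx3y was at 1.44 to 8.16 CPM in double-deficient and 5.94 to 19.1 CPM in PLCγ1-deficient CLPs, and of 5 sex-linked genes 3 had an unadjusted p under 0.05 between these CLPs, with 0 called.

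Ikzf1 was the most abundant member in every library, and Ikzf3 came next. Levels of different genes were compared per kilobase of annotated exon, which amounts to 5.58 kb in Ikzf1, 9.55 kb in Ikzf2, 3.66 kb in Ikzf3, 5.83 kb in Ikzf4 and 4.67 kb in Ikzf5. On this scale, control CLPs held 147 ± 17.4 CPM per kb of Ikzf1 (SD, n = 3), 49.5 ± 9.84 of Ikzf3, 8.68 ± 0.832 of Ikzf5, 4.27 ± 5.08 of Ikzf2 and 0.055 ± 0.0277 of Ikzf4. Control B cell progenitors held 181 ± 3.67 CPM per kb of Ikzf1, 68.5 ± 20.3 of Ikzf3, 12.3 ± 0.794 of Ikzf5, 1.42 ± 0.425 of Ikzf2 and 0.0554 ± 0.0689 of Ikzf4. Ikzf1 stood above Ikzf3 in 24 of 24 libraries, Ikzf3 above Ikzf5 in 23, Ikzf5 above Ikzf2 in 20 and Ikzf2 above Ikzf4 in 24, so that only Ikzf5 and Ikzf2 exchanged places in more than a single library.

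**Figure D1:**
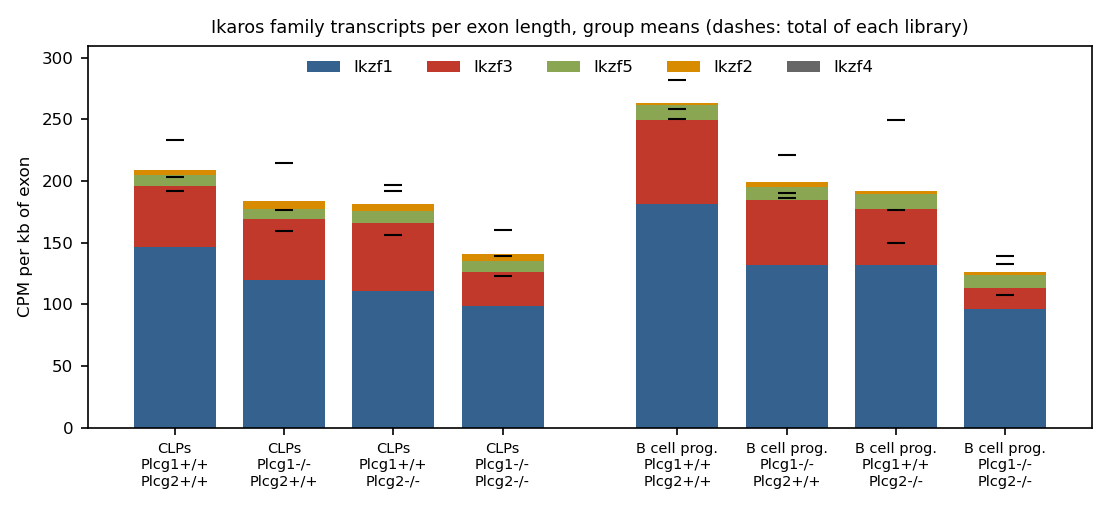
Mean CPM per kilobase of exon of each Ikaros family member (stacked bars) in the 4 genotypes of CLPs (left) and B cell progenitors (right), with a dash for the summed level of each of the 3 libraries of a group. Ikzf1 and Ikzf3 make up most of each bar, and the bars of double-deficient cells are the shortest in both populations, at 141 and 126.5 CPM per kb.

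The summed level of the family was lower in double-deficient than in control cells in both populations, without overlap. Here and below, non-overlap of libraries is a description, given without the share of all genes that did the same. It was between 192 and 233 CPM per kb in control CLPs and between 123 and 160 in double-deficient CLPs, and between 250.4 and 282 in control B cell progenitors against 108 to 139 in double-deficient ones. PLCγ1-deficient and PLCγ2-deficient cells lay between them on average, at 184 and 182 CPM per kb in CLPs, where their libraries overlapped both groups, and at 199 and 192 in B cell progenitors, where all of them lay below the control and above the double-deficient libraries. The sum follows Ikzf1 and Ikzf3, which are described next, and was not tested on its own.

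Ikzf3 was the 1 member called between genotypes. In B cell progenitors it was at 334, 191 and 226 CPM in the 3 control libraries (replicates 1, 2 and 3) and at 66.9, 38.4 and 74.6 CPM in the double-deficient ones. The highest double-deficient library thus lay far below the lowest control library. In such bulk samples, fewer cells of a type and less RNA per cell cannot be told apart. It was at 231, 190 and 155 CPM in PLCγ1-deficient and at 173, 246 and 81.4 CPM in PLCγ2-deficient B cell progenitors, 2 groups that overlapped the control libraries but not the double-deficient ones. Ikzf3 was 4.22-fold lower in double-deficient than in control B cell progenitors, a log2 fold change of -2.08 ± 0.38 (SE), with an adjusted p of 0.0233 (edgeR quasi-likelihood test, Benjamini-Hochberg adjustment over all 15001 genes tested). A gene was called where that adjusted p was at most 0.05 and the absolute log2 fold change at least 0.5. Ikzf3 was the 1 of 5 members called in this comparison, against 0.893% of all genes called (0.673% lower). The call depended on single libraries: it was lost without control replicate 1 (adjusted p = 0.0819) or 3 (0.0618) and without double-deficient replicate 1 (0.053), 2 (0.103) or 3 (0.0754), and stood only without control replicate 2 (0.0432), while the log2 fold change stayed between -2.27 and -1.81.

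**Figure D2:**
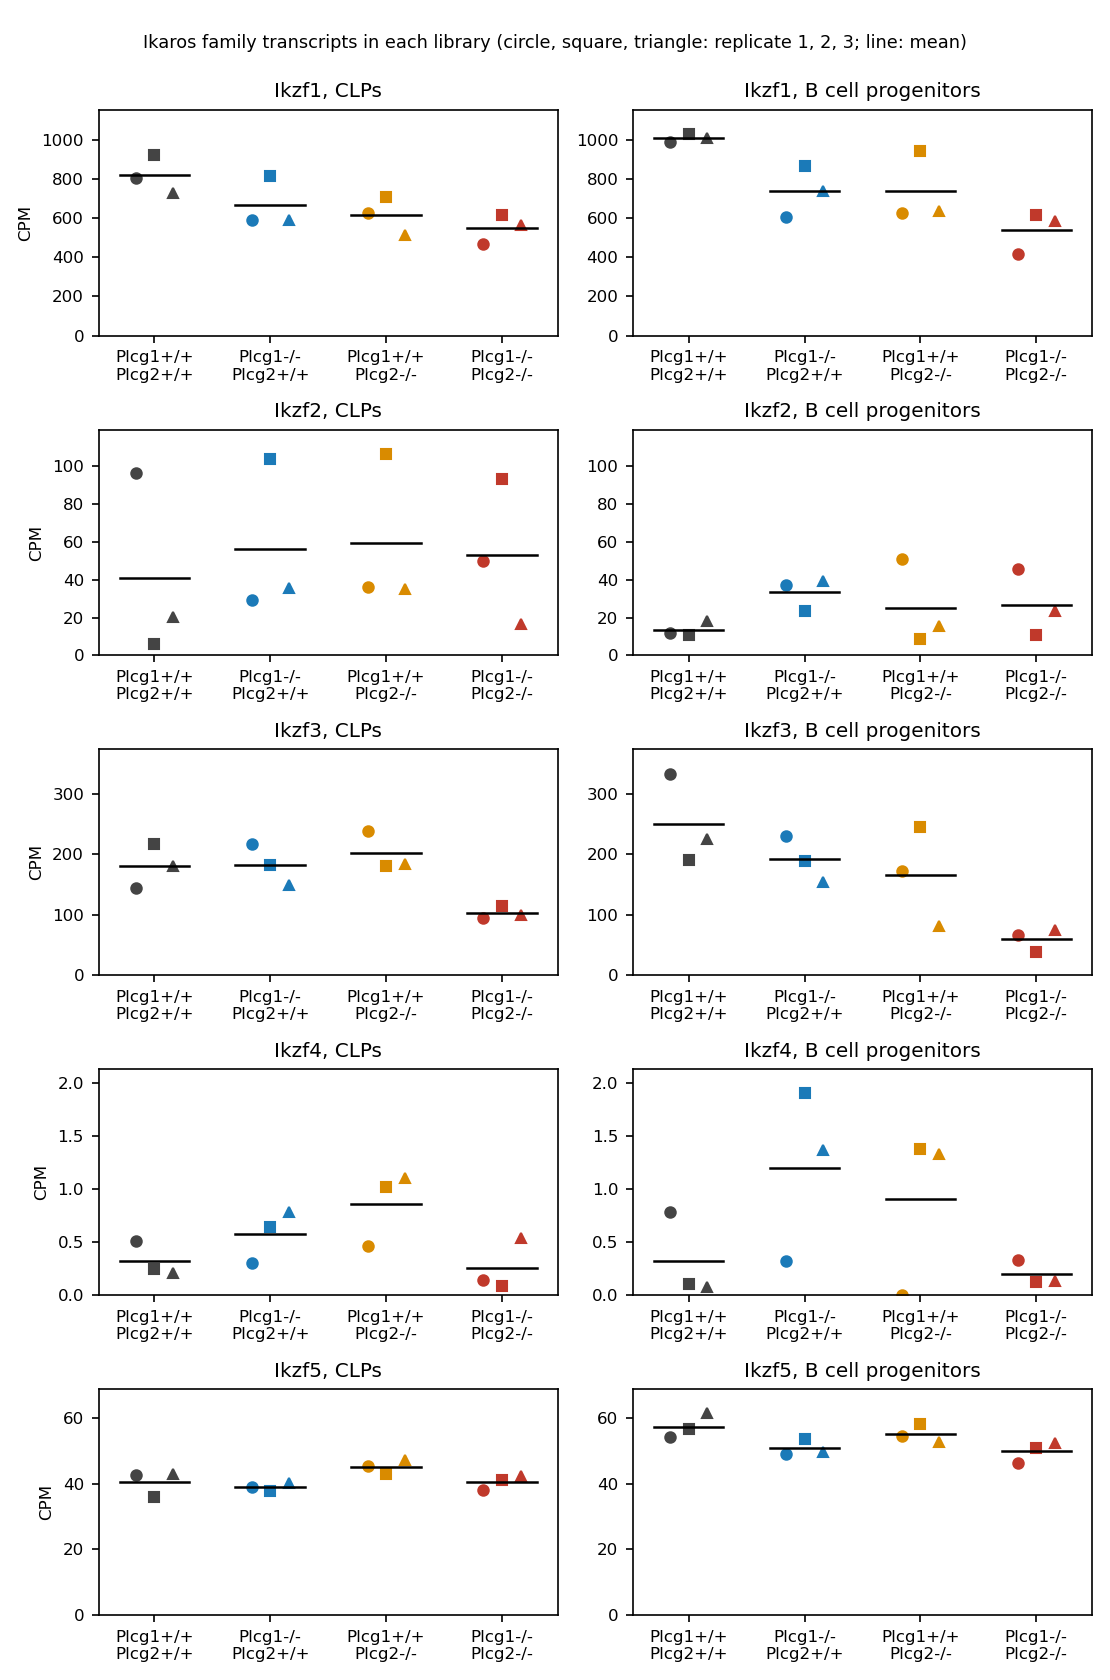
CPM of the 5 Ikaros family members in each of the 24 libraries, with CLPs on the left and B cell progenitors on the right, 4 genotypes per panel, a symbol per library (circle, square and triangle for replicates 1, 2 and 3) and a line at the mean; vertical axes start at 0 and are shared within a gene. Ikzf3 in double-deficient cells (38.4 to 114 CPM) lies below control cells in both populations, Ikzf2 scatters widely in CLPs, and Ikzf5 stays within a narrow band.

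In CLPs, Ikzf3 was also lowest in double-deficient cells, at a smaller distance from control cells. The control libraries held 145, 217 and 181 CPM, and the double-deficient libraries 94.9, 114 and 100 CPM (replicates 1, 2 and 3), all of them lower. PLCγ1-deficient CLPs, at 217, 182 and 150 CPM, and PLCγ2-deficient CLPs, at 239, 181 and 185 CPM, overlapped the control CLPs and did not overlap the double-deficient ones. The log2 fold change of double-deficient against control CLPs was -0.82 ± 0.18 (SE) and was not called (edgeR adjusted p = 0.181), and DESeq2 called it (adjusted p = 0.0111). Among all 15209 genes tested, 0.0921% were called in this comparison and 0 of 5 members were. Of the members, 2 (Ikzf1 and Ikzf3) had an unadjusted p under 0.05, against 1143 of all genes. DESeq2 called 1 member (Ikzf3) and 170 genes in all. Without the 4 mice whose CLP library stood apart from the B cell progenitor library, the value was -1.03 in CLPs (adjusted p = 0.141) and -1.52 in B cell progenitors (adjusted p = 0.108), so that the call in B cell progenitors ended.

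Against either single-deficient genotype, Ikzf3 in double-deficient cells was lower in all 3 libraries in both populations, and no such difference was called by edgeR. How many of all genes separated in this way is not given, so the separation is a description. In CLPs the log2 fold change was -0.83 ± 0.18 (SE) against PLCγ1-deficient cells (edgeR adjusted p = 0.277) and -0.98 ± 0.18 against PLCγ2-deficient cells (adjusted p = 0.140). In B cell progenitors it was -1.71 ± 0.37 (adjusted p = 0.122) and -1.52 ± 0.37 (adjusted p = 0.225). DESeq2 called Ikzf3 in all 4 of these comparisons, with adjusted p from 0.000985 to 0.0137. Called by edgeR were 0 of 5 members in each, against 0.0263% and 0.0526% of all genes in CLPs and 0.213% and 0.153% in B cell progenitors; at an unadjusted p under 0.05 stood 1 and 1 member in CLPs (Ikzf3) and 3 (Ikzf1, Ikzf3, Ikzf4) and 2 (Ikzf1, Ikzf3) in B cell progenitors. Ikzf4 was at the edge of detection, as given below. All of these comparisons share the double-deficient libraries. Against PLCγ2-deficient cells, 2 of 5 sex-linked genes were called in CLPs and 5 of 5 in B cell progenitors. Genotype and sex cannot be told apart there.

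The single-deficient genotypes did not separate from control cells in Ikzf3. In B cell progenitors the log2 fold change was -0.37 ± 0.36 (SE) in PLCγ1-deficient cells (edgeR adjusted p = 0.602) and -0.56 ± 0.36 in PLCγ2-deficient cells (adjusted p = 0.919), with overlapping libraries. The order of the group means ran from control B cell progenitors (250.5 CPM) through PLCγ2-deficient CLPs (202), PLCγ1-deficient B cell progenitors (192), PLCγ1-deficient CLPs (183), control CLPs (181) and PLCγ2-deficient B cell progenitors (167) to double-deficient CLPs (103) and double-deficient B cell progenitors (59.9). All neighbours in this order overlapped except the last pair.

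Ikzf1 was also at lower levels in double-deficient cells, by a smaller amount that did not pass the test in either population. In B cell progenitors it was at 991, 1032 and 1011 CPM in control libraries and at 417, 616 and 585 CPM in double-deficient ones (replicates 1, 2 and 3), with no overlap. PLCγ1-deficient B cell progenitors, at 608, 866 and 741 CPM, and PLCγ2-deficient ones, at 629, 944 and 640 CPM, all lay below the control libraries. The log2 fold change of double-deficient against control B cell progenitors was -0.91 ± 0.20 (SE), 1.88-fold lower, with an edgeR adjusted p of 0.0655 that missed the threshold. With the control and double-deficient libraries fitted alone it was called (adjusted p = 0.0369), and so it was with DESeq2 (adjusted p = 0.000709) or with the share of reads on no gene as a covariate (adjusted p = 0.0438), while without single libraries it was not (adjusted p from 0.113 to 0.240). Without the 4 mice that stood apart it was -0.99 (adjusted p = 0.0799). The single deficiencies gave -0.43 ± 0.20 for PLCγ1 (adjusted p = 0.467) and -0.44 ± 0.20 for PLCγ2 (adjusted p = 0.919), neither called.

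In CLPs, Ikzf1 was at 806, 923 and 730 CPM in control libraries and at 467, 618 and 564 CPM in double-deficient ones. All 3 double-deficient libraries lay below the control libraries, and the log2 fold change of -0.59 ± 0.17 (SE) was not called (edgeR adjusted p = 0.385; -0.68 without the 4 mice that stood apart, adjusted p = 0.309). PLCγ2-deficient CLPs, at 628, 709 and 513 CPM, were also below all control CLPs (-0.41 ± 0.17, adjusted p = 0.939), and PLCγ1-deficient CLPs, at 591, 815 and 592 CPM, overlapped them (-0.31 ± 0.17, adjusted p = 0.9996). Double-deficient cells differed from single-deficient cells in Ikzf1 by -0.28 ± 0.17 and -0.18 ± 0.17 in CLPs and by -0.48 ± 0.20 and -0.47 ± 0.20 in B cell progenitors (PLCγ1-deficient, then PLCγ2-deficient), none called, with edgeR adjusted p from 0.260 to 0.9996. The group means of Ikzf1 ran from 1011 CPM in control B cell progenitors through 820 CPM in control CLPs down to 549.5 CPM in double-deficient CLPs and 539 CPM in double-deficient B cell progenitors, and only the first pair of neighbours did not overlap.

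No member was called in a single-deficient genotype. The shares of all genes called were 0.00658% (PLCγ1-deficient CLPs), 0% (PLCγ2-deficient CLPs), 0.06% (PLCγ1-deficient B cell progenitors) and 0.0467% (PLCγ2-deficient B cell progenitors), each against control cells. By DESeq2, 0 of 5 members were called in these 4 comparisons, and at an unadjusted p under 0.05 edgeR had 0 members, 1 (Ikzf1), 1 (Ikzf2) and 0. Over all genes, 434, 596, 1490 and 426 had such a p, and DESeq2 called 13, 11, 24 and 18.

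**Figure D3:**
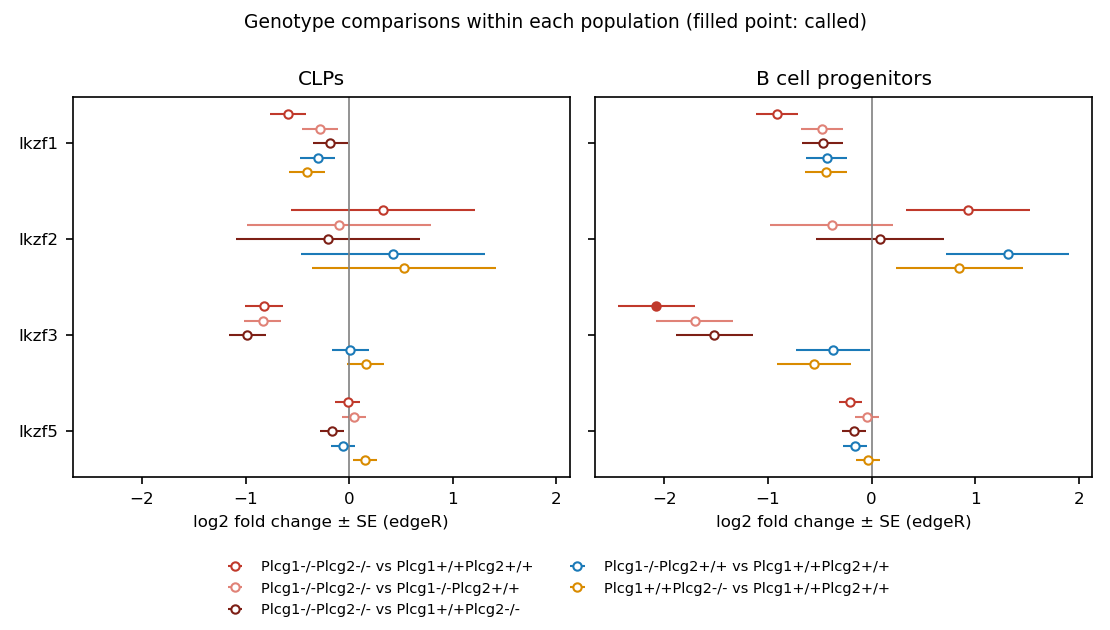
Log2 fold changes (horizontal axis) with standard errors of Ikzf1, Ikzf2, Ikzf3 and Ikzf5 in 5 genotype comparisons within CLPs (left) and B cell progenitors (right), from edgeR; a filled point is a called gene. The only filled point is Ikzf3 in double-deficient against control B cell progenitors, at -2.08, and the standard errors of Ikzf2 are the widest in both populations.

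The ratio of the 2 abundant members was higher in double-deficient than in control B cell progenitors, and was not tested. Per kilobase, Ikzf1 was 1.95, 3.54 and 2.93 times as high as Ikzf3 in control B cell progenitors and 4.09, 10.5 and 5.14 times in double-deficient ones, without overlap. PLCγ2-deficient B cell progenitors, at 2.39, 2.51 and 5.15, overlapped the double-deficient ones, and PLCγ1-deficient ones, at 1.72, 2.99 and 3.14, did not. In CLPs the ratio was 3.64, 2.79 and 2.64 in control and 3.22, 3.55 and 3.68 in double-deficient libraries, which overlapped. PLCγ1-deficient CLPs (1.79, 2.94 and 2.59) and PLCγ2-deficient CLPs (1.72, 2.56 and 1.82) all lay below the double-deficient ones. Ikzf3 accordingly made up between 20.9 and 32.4% of the family's transcripts per kilobase in control B cell progenitors and between 7.89 and 16.96% in double-deficient ones, and Ikzf5 between 4.11 and 5.09% against 8.09 to 9.18%, with no higher level of its own.

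A difference between both populations in the response of Ikzf3 was not shown. Its log2 fold change of double-deficient against control cells differed by -1.26 ± 0.43 (SE) between B cell progenitors and CLPs, with an edgeR adjusted p of 0.9998 over 17212 genes for this interaction contrast. Without the 4 mice that stood apart it was -0.52. That contrast called 0% of genes, 235 of which had an unadjusted p of at most 0.05, and DESeq2 called 0 genes. Ikzf3 was the only member among the 235. For Ikzf1 the contrast gave -0.33 ± 0.27 (adjusted p = 0.9998).

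Markers of B cell maturation were also lower in double-deficient than in control B cell progenitors. Of 7 measured genes of pre-B and later B cells, 3 were called lower in double-deficient B cell progenitors, with a median log2 fold change of -1.77 over the list against -0.018 over all genes: Il2ra, the CD25 chain that appears at the pre-B stage (-3.40 ± 0.51, edgeR adjusted p = 0.00818), the inhibitory coreceptor Cd22 (-1.62 ± 0.24, adjusted p = 0.00747) and the adhesion receptor Cd2 (-1.95 ± 0.39, adjusted p = 0.0386). Il2ra was at 73.2, 74.1 and 48.4 CPM in control and at 8.52, 2.96 and 8.48 CPM in double-deficient B cell progenitors. The summed level of the 7 genes was between 712 and 806 CPM in control and between 208 and 301 CPM in double-deficient B cell progenitors, and in CLPs between 228 and 780 CPM against 188 to 226 CPM, with 0 genes called there by edgeR, 5 at an unadjusted p under 0.05 and 4 called by DESeq2. Over all genes, 0.673% were called lower in B cell progenitors. In CLPs 1143 of 15209 genes had an unadjusted p of at most 0.05 and DESeq2 called 170. Marker sum and Ikzf3 were not low together in every library: control CLP replicate 1 held 228 CPM of the 7 marker genes and 145 CPM of Ikzf3. The part of these markers' cells in the level of Ikzf3 was not tested. Ighm and Ighd are not analysed here.

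**Figure D4:**
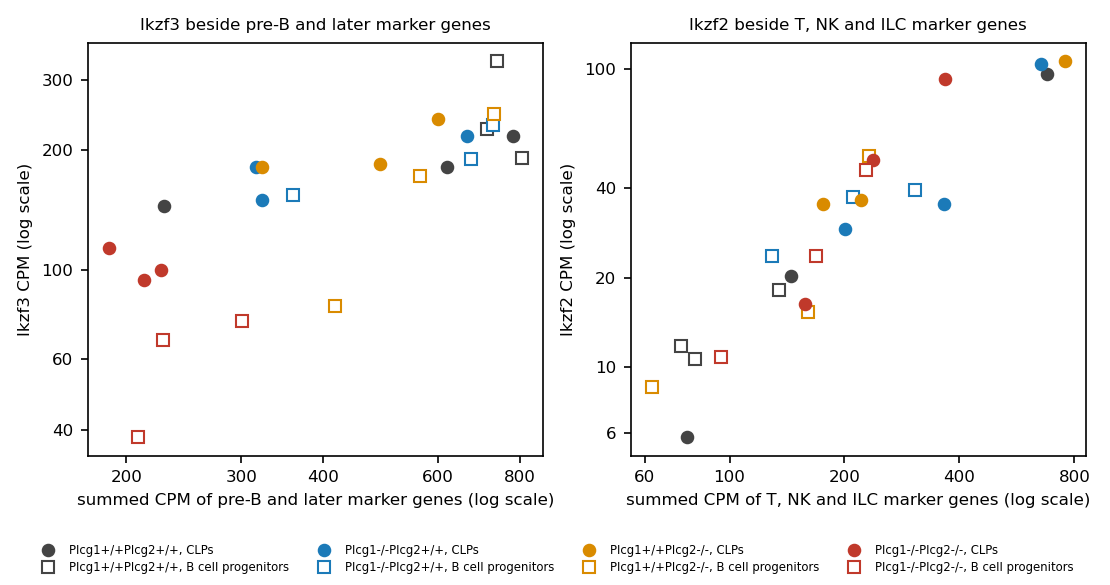
Ikzf3 CPM beside the summed CPM of 7 pre-B and later marker genes (left) and Ikzf2 CPM beside the summed CPM of 12 T, NK and ILC marker genes (right), a point per library (filled circles are CLPs, open squares are B cell progenitors, colours are genotypes) on log axes. Double-deficient libraries lie at the low end of both axes on the left, and the 4 CLP libraries with the highest Ikzf2 (92.9 to 106 CPM) lie at the upper right of the right panel.

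The genes most like Ikzf3 across the 24 libraries, by Pearson correlation of log2 CPM after the mean of each population was subtracted, over 17211 genes searched, were Il2ra (r = 0.92), the polymerase Polm (0.90) and the Ras activator Rasgrp1 (0.90). For Ikzf1 they were the sialyltransferase St6gal1 (0.92), the heat shock gene Hspa2 (0.92) and the histone demethylase Phf2 (0.91). Ikzf1 and Ikzf3 themselves were correlated at r = 0.64 over 24 libraries, 0.48 within CLPs and 0.71 within B cell progenitors. These values are descriptions: libraries of a mouse, a genotype and a sort are among the points.

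Ikzf2 did not separate the genotypes. In CLPs it was at 96.2, 5.85 and 20.3 CPM in control, 29.1, 104 and 35.4 CPM in PLCγ1-deficient, 36.4, 106 and 35.2 CPM in PLCγ2-deficient and 49.8, 92.9 and 16.3 CPM in double-deficient libraries (replicates 1, 2 and 3), an 18.2-fold range with full overlap of all genotypes. The 4 highest libraries are the CLP libraries of the 4 mice that stood apart above. As a set to leave out, these mice were chosen for high Gata3 in CLPs after values were seen. Gata3, a factor of T cells and innate lymphoid cells, was at 67.4 to 126 CPM in them against 2.19 to 53.3 CPM in the other CLP libraries. Rora, a factor of innate lymphoid cells, was at 92.8 to 193.5 CPM against 3.66 to 42.8 CPM. The summed level of 12 T, NK and ILC markers was between 366 and 757 CPM in these 4 and between 77.5 and 364 CPM in the others, and the part of such cells in the level of Ikzf2 was not tested.

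In B cell progenitors Ikzf2 was at 11.8, 10.6 and 18.2 CPM in control, 37.3, 23.7 and 39.3 CPM in PLCγ1-deficient, 51.0, 8.58 and 15.3 CPM in PLCγ2-deficient and 45.9, 10.8 and 23.6 CPM in double-deficient libraries. Only the PLCγ1-deficient libraries lay wholly above the control ones, by a log2 fold change of 1.31 ± 0.60 (SE) that was not called (edgeR adjusted p = 0.467). The double-deficient libraries overlapped the control libraries (0.93 ± 0.60, adjusted p = 0.545), a value that ran from 0.32 without double-deficient replicate 1 to 1.34 without double-deficient replicate 2. The summed T, NK and ILC markers were between 74.7 and 134 CPM in control, 130 and 307 CPM in PLCγ1-deficient and 94.8 and 228 CPM in double-deficient B cell progenitors, and their part in these values was not tested. The genes most like Ikzf2 were Asph (r = 0.95), Galnt6 (0.95) and the purinergic receptor P2rx7 (0.95).

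Ikzf5 was the steadiest member. Over all CLP libraries it lay between 36.1 and 47.1 CPM, a 1.31-fold range, and over all B cell progenitor libraries between 46.2 and 61.4 CPM, a 1.33-fold range. In double-deficient B cell progenitors it was at 46.2, 50.8 and 52.4 CPM against 54.1, 56.6 and 61.4 CPM in control ones, a log2 fold change of -0.20 ± 0.11 (SE) that was not called (edgeR adjusted p = 0.495) and whose interval of 2 SE reached from -0.43 to 0.03. Double-deficient CLPs, at 38.2, 41.2 and 42.2 CPM, overlapped control CLPs, at 42.6, 36.1 and 42.9 CPM. No gene was as like it as those above were like Ikzf1 to Ikzf3, with Zfp959 first (r = 0.72), then Ptbp2 (0.65) and the apoptosis factor Casp8ap2 (0.64).

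Ikzf4 was at the edge of detection. It had between 0 and 26 reads per library, at most 1.90 CPM, and 3 reads amount to between 0.0903 and 2.03 CPM at these depths, so that no fold change is given. It was above 3 reads in all libraries of PLCγ1-deficient CLPs (5, 13 and 8 reads) and PLCγ2-deficient CLPs (8, 23 and 5 reads), while in each of the other 6 groups at least 1 library had 3 reads or fewer. Depth differed between these libraries, so the read counts do not compare the groups. The genes closest to it, B3galt1 (r = 0.90), Mcc (0.90) and Adamts12 (0.90), are named under the same limit.

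Between populations, Ikzf5 was higher in B cell progenitors than in CLPs in 12 of 12 mice. The share of all genes with such a count is not given here, so it is a description. The B cell progenitor libraries lay wholly above the CLP libraries in each genotype, and the log2 fold change was 0.50 ± 0.10 (SE) in control cells (edgeR adjusted p = 0.00625), 0.38 ± 0.10 in PLCγ1-deficient (adjusted p = 0.0466), 0.29 ± 0.11 in PLCγ2-deficient (adjusted p = 0.159) and 0.30 ± 0.10 in double-deficient cells (adjusted p = 0.143). None of these was called, the first 2 because their size was under the minimum of 0.5, by little in control cells (0.497). Over all genes the median of this contrast was 0.13 in PLCγ1-deficient and 0.080 in PLCγ2-deficient cells and near 0 in the others. The values of Ikzf5 in PLCγ1-deficient and PLCγ2-deficient cells moved to 0.23 and 0.17 with no filter on low counts, under which other genes enter the scaling, and to 0.20 to 0.30 and 0.14 to 0.22 with single libraries left out, all still higher in B cell progenitors. In control cells the value was called without CLP replicate 1 (0.56), CLP replicate 3 (0.54) or B cell progenitor replicate 1 (0.57), and without the mice that stood apart it was 0.56 (adjusted p = 0.0954). With the mouse as a replicate block, since both libraries of a mouse come from the same animal, the value in control cells was 0.50 and was called (adjusted p = 0.0189), while in PLCγ1-deficient cells the adjusted p went to 0.0791. In control cells the adjusted p was above 0.05 with the share of reads on no gene as a covariate (0.39, adjusted p = 0.233), with the groups compared alone (adjusted p = 0.130) and with thinned counts (adjusted p = 0.0815). The share of reads on no gene differed between all CLP and all B cell progenitor libraries, as given above, and its part and that of the population in this difference cannot be told apart.

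**Figure D5:**
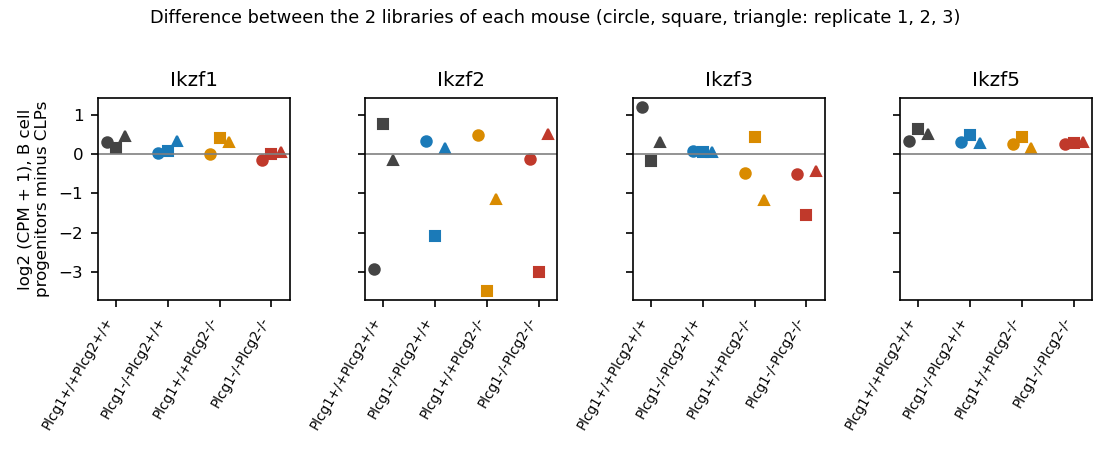
Difference in log2 (CPM + 1) between the B cell progenitor and the CLP library of each mouse (vertical axis, 0 means equal) for Ikzf1, Ikzf2, Ikzf3 and Ikzf5, by genotype, with circle, square and triangle for replicates 1, 2 and 3. All 12 values of Ikzf5 lie above 0, all 3 double-deficient values of Ikzf3 lie below 0, and Ikzf2 lies far below 0 in the 4 mice whose CLP library stood apart.

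None of the other members was called between populations. Ikzf1 was higher in the B cell progenitor library in 10 of 12 mice, by a log2 fold change of 0.30 ± 0.19 (SE) in control cells (edgeR adjusted p = 0.481). All control B cell progenitor libraries lay above all control CLP libraries. These fits did not pair the libraries of a mouse. Across the alternatives, the mouse as a block among them, Ikzf1 in control cells was at 0.29 to 0.32 (lowest edgeR or DESeq2 adjusted p = 0.157). For Ikzf3 in control cells they gave 0.063 to 0.55 (lowest adjusted p = 0.361). Ikzf3 was higher in 6 of 12 mice, with 0.47 ± 0.30 in control (edgeR adjusted p = 0.489), -0.26 ± 0.30 in PLCγ2-deficient (adjusted p = 0.704) and -0.79 ± 0.31 in double-deficient cells (adjusted p = 0.214), where all 3 B cell progenitor libraries lay below all 3 CLP libraries. The value in control cells was 0.25 without B cell progenitor replicate 1 and 0.063 without the 4 mice that stood apart. In PLCγ2-deficient cells Ikzf3 ran from -0.71 (without B cell progenitor replicate 2) to -0.05 (without replicate 3); without the 4 mice it was -0.73 there and -0.45 in double-deficient cells. Ikzf2 was higher in B cell progenitors in 5 of 12 mice. Called between populations by edgeR were 0 of 5 members in each genotype, against 3.5, 3.78, 3.21 and 3.24% of all genes in control, PLCγ1-deficient, PLCγ2-deficient and double-deficient cells, and DESeq2 called 0 as well. At an unadjusted p under 0.05 stood 1, 1, 1 and 2 members, against 2763, 4568, 2782 and 2467 of 17212 genes. DESeq2 called 802, 1476, 748 and 743 genes in all.

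Genes with which the family works were looked at in the comparison of double-deficient with control cells. Over all genes, 1143 of 15209 in CLPs and 1841 of 15001 in B cell progenitors had an unadjusted p of at most 0.05 there. DESeq2 called 170 and 413 genes, and edgeR called 0.0921% and 0.893%. Of the 17 subunits of the NuRD, Sin3 and CtBP corepressor complexes that Ikaros family proteins recruit, 0 were called in either population (median log2 fold change -0.07 in CLPs and -0.13 in B cell progenitors); 0 and 3 had an unadjusted p under 0.05, and DESeq2 called 0. Chd4, the remodelling ATPase of NuRD, differed by 0.16 ± 0.15 (SE) in CLPs (edgeR adjusted p = 0.835) and by -0.05 ± 0.17 in B cell progenitors (adjusted p = 0.929). Of 5 genes of the cereblon ubiquitin ligase 0 were called in either population (medians 0.11 and 0.04), with 0 at an unadjusted p under 0.05 and 0 by DESeq2. Crbn, its substrate receptor, differed by 0.11 ± 0.16 and -0.09 ± 0.13 (adjusted p = 0.886 and 0.792). Between populations Crbn was higher in control B cell progenitors (1.13 ± 0.14, edgeR adjusted p = 9.98e-06), at 91.1 to 105 CPM against 37.8 to 47.9 CPM in CLPs. It was called in all 4 genotypes. The shares of all genes called were 3.21 to 3.78% in single genotypes, and the share called in all 4 is not given here. The share of reads on no gene also differed between these populations, and its part cannot be told apart.

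Of 12 genes described elsewhere as targets of Ikaros or Aiolos, 0 were called in either population by edgeR, with 1 (Ccnd2) and 3 (Ccnd2, Syk, Vpreb1) at an unadjusted p under 0.05 and 0 and 1 (Syk) called by DESeq2. Their median log2 fold change was -0.10 in CLPs and 0.30 in B cell progenitors. The counts over all genes are those given above for the corepressors. Igll1, which encodes the λ5 chain of the pre-BCR and is repressed by Ikaros in pre-B cells, differed by 0.79 ± 0.67 (SE) in CLPs (adjusted p = 0.815) and by 1.03 ± 0.53 in B cell progenitors (adjusted p = 0.461). Of 8 factors that act beside the family in B cells, 1 was called, Irf4, which with Ikaros and Aiolos promotes the pre-B stage: it was lower in double-deficient B cell progenitors (-2.53 ± 0.47, edgeR adjusted p = 0.0271), at 71.8, 115 and 147 CPM against 507, 650 and 777 CPM in control ones. DESeq2 also called Spib, and Pax5 and Spib had an unadjusted p under 0.05. The median of the list was -0.20 in CLPs and -0.38 in B cell progenitors. In CLPs 0 of the 8 were called, 1 (Irf4, -1.88 ± 0.62, adjusted p = 0.448) had an unadjusted p under 0.05 and DESeq2 called 0.

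Other cell types were read by their markers in the same comparison, with the counts over all genes given above for the corepressors. All 10 myeloid genes had a positive log2 fold change in double-deficient cells in both populations, with medians of 0.82 in CLPs and 0.95 in B cell progenitors, and 0 were called by edgeR (1 and 4 at an unadjusted p under 0.05, 0 and 1 by DESeq2). Their summed level was between 2271 and 3830 CPM in control and between 3392 and 7754 CPM in double-deficient CLPs, and between 1376 and 4415 CPM against 2619 to 6719 CPM in B cell progenitors. It was highest in replicate 1 of each deficient genotype, and without those 3 mice the log2 fold change of Ikzf3 was -0.77 in CLPs (adjusted p = 0.321) and -2.19 in B cell progenitors (adjusted p = 0.0416), so that the call remained. For Ikzf1 it was -0.49 (adjusted p = 0.740) and -0.78 (adjusted p = 0.0726). The double-deficient libraries that remained still held 3392 and 5041 CPM of the myeloid genes in CLPs and 2619 and 5240 CPM in B cell progenitors. Leaving out these mice therefore cannot test a myeloid part. Of 9 genes of B cell progenitors 0 were called in either population (medians 0.03 and 0.02; 0 and 2 at an unadjusted p under 0.05, 0 by DESeq2), and their summed level was between 3684 and 4794 CPM in control and between 2521 and 6594 CPM in double-deficient B cell progenitors. Of 12 T, NK and ILC genes 0 were called (medians -0.46 and 0.60; 0 and 1 at an unadjusted p under 0.05, 0 and 1 by DESeq2). Of 6 plasmacytoid dendritic cell genes 0 were called (medians -0.25 and 0.72; 0 and 2, then 0 and 1), and of 7 genes of CLPs 0 (medians -0.12 and 0.97; 0 and 2, then 0 and 0). Of 4 erythroid genes tested 0 were called, with all 4 positive in both populations (medians 1.04 and 1.10; 1 and 0 at an unadjusted p under 0.05, 0 by DESeq2), and of 6 and 5 haematopoietic stem cell genes tested 0 (medians -0.08 and 0.46; 0 and 1 at an unadjusted p under 0.05, 0 by DESeq2). The part of any of these cell types in the levels of Ikzf1 and Ikzf3 was not tested.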

How the data were processed

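RNA of CLPs and B cell progenitors was converted to poly(A)-selected, unstranded libraries and sequenced on an Illumina NextSeq. According to the methods and the processing notes, reads were mapped to mm10 by STAR (version 2.5.0a) through BaseSpace. The deposited values are raw counts of reads per gene symbol without normalization; the counting program is not given in the sources used here. Rows that name no gene, or that count reads of several genes (17.9 to 87.3% and 0.11 to 1.44% of a library) were left out of tests.

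Counts were fitted with edgeR 4.0.16 in R 4.3.3 (TMM, filterByExpr, quasi-likelihood test, Benjamini-Hochberg adjustment), with 12 libraries per population in one fit and 24 in the fit between populations, no covariate and SE derived from F. CPM come from the 24-library TMM scaling. The script was tested on simulated data with known fold changes. Members and gene lists were chosen with earlier results of these data known. Named were the 5 members, the genes of 4 working lists (corepressors, cereblon ligase, targets, co-acting factors) called in double-deficient against control cells, the first gene of each of those lists, up to 3 defining genes per marker list and the 3 genes most like each member; genes named for an unadjusted p or a DESeq2 call, and the values of Gata3 and Rora by library, were chosen after values were seen.

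Replicates of a group differed by more than sampling noise, so each counts once. Statements that libraries of 2 groups did not overlap, and counts of mice, are descriptions given without the share of all genes that did the same. The CLP and B cell progenitor libraries with one number and genotype carry the same mouse number in their titles; their deviations from the group means correlated at a mean r of 0.114, against -0.0589 for different mice. Alternatives were RLE scaling, no filter, adjusted p alone, DESeq2 1.42.0, groups compared alone, thinned counts, the share of reads on no gene as a covariate, replicate or mouse blocks and single libraries left out; leaving out 2 sets of mice was chosen after seeing the data. Positions, lengths and sequences are from GENCODE M21 (GRCm38, the build of the counts). The floor of 3 reads covers counting error only.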

Additional observations from a re-analysis of the deposited data

How the results depend on the processing

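The log2 fold changes given for Ikzf1, Ikzf2, Ikzf3 and Ikzf5 kept their direction under every alternative tried and with each single library left out. Calls depended on the test. With DESeq2, 1 member (Ikzf3) was called in double-deficient against control, PLCγ1-deficient and PLCγ2-deficient CLPs, 1 in double-deficient against PLCγ1-deficient and against PLCγ2-deficient B cell progenitors, and 2 (Ikzf1 and Ikzf3) in double-deficient against control B cell progenitors, in place of 0, 0, 0, 0, 0 and 1. The last count was also 2 with the share of reads on no gene as a covariate and with the groups compared alone. It was 0 without the 4 mice with high Gata3 in CLPs, and 0 to 1 with single libraries left out. Between populations, 1 member (Ikzf5) was called in control cells by adjusted p alone, with the mouse as a replicate block and without the 3 deficient mice with high myeloid transcripts, and 0 to 1 with single libraries left out; by adjusted p alone 1 was called in PLCγ1-deficient cells. The cause of these shifts was not tested. Over all genes, DESeq2 called 170, 89 and 98 in the CLP comparisons named first. It called 1000, 152 and 413 in those of B cell progenitors, in the order given.

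Replicate numbers are not stated to pair mice of different genotypes. Same-numbered libraries of different genotypes correlated at -0.196 to 0.612 in CLPs, with a mean r of 0.205 against -0.103 for different numbers. In B cell progenitors they correlated at -0.528 to 0.658, with a mean r of 0.0615 against -0.0313. Of 12 CLP libraries 10, and of 12 B cell progenitor libraries 7, correlated best with their own number. Whether the numbers mark a batch was not tested. With the replicate number as a replicate block, 2 members were called in double-deficient against control B cell progenitors (Ikzf1, adjusted p = 0.00528, and Ikzf3), and 550 genes in all instead of 134.

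Counts over all genes depended more on the setting. With the lowest and highest count of any alternative in brackets, single libraries aside, they were 14 (0 to 170), 1 (0 to 13) and 0 (0 to 11) in double-deficient, PLCγ1-deficient and PLCγ2-deficient against control CLPs, and 4 (0 to 89) and 8 (0 to 98) in double-deficient against PLCγ1-deficient and PLCγ2-deficient CLPs. In the same order they were 134 (57 to 550), 9 (6 to 24), 7 (0 to 18), 32 (0 to 1000) and 23 (7 to 152) in B cell progenitors. Between populations they were 602 (271 to 2248) in control, 650 (222 to 1476) in PLCγ1-deficient, 552 (177 to 1231) in PLCγ2-deficient and 557 (314 to 2182) in double-deficient cells. Ikzf4 is limited by depth.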
